A study of Mus musculus with 8 samples.

Results

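The genes described here are the transcription factor NRF2 (Nfe2l2), 6 of its classical target genes (Nqo1, Gclc, Gclm, Srxn1, Txnrd1 and Hmox1) and the alpha class glutathione transferases Gsta2, Gsta3 and Gsta4. They were taken by gene symbol, and 9 of the 10 were measured. The platform annotation paired no probe set with Gsta2, so its expression was not analysed here. Each of the 9 had 1 probe set, among 19540 genes in all. The arrays held total RNA from the liver of male C57B/6 mice aged 12 weeks, kept on chow in a light and dark cycle, untreated, and taken at ZT10 (10 h after lights on). There were 4 WT arrays and 4 HNF6KO arrays. HNF6KO livers are depleted of HNF6, a liver transcription factor encoded by Onecut1, and the labels do not say how or in which cells. They also do not say whether each array came from a separate animal, so the spread between arrays may be technical in part.

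NRF2 is the main regulator of the cell's answer to oxidants and electrophiles. At rest its protein is bound by KEAP1 and degraded through the CUL3 ubiquitin ligase. When reactive compounds modify KEAP1, NRF2 builds up, pairs with a small MAF protein and binds antioxidant response elements in its target genes, while BACH1 competes for the same elements. In liver the targets make glutathione, reduce quinones and disulfides, break down heme and conjugate electrophiles to glutathione. The activity of NRF2 is set largely at the protein level, so its mRNA is not a measure of that activity. Alpha class glutathione transferases are abundant in hepatocytes and respond to NRF2 and to other xenobiotic sensors.

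Onecut1 was lower on every HNF6KO array (8.67 to 9.32) than on any WT array (9.87 to 10.52), which checks the labels (log2 change -1.32 ± 0.18, SE, n = 4 in each group, limma adjusted p = 0.0273). That call was lost in 7 of 20 alternatives, 5 of them among the 8 fits that left out 1 array, and its direction held in each. The change was -0.83 for arrays 1 and 2 (adjusted p = 0.171) and -1.80 for arrays 3 and 4, and the adjusted p was 0.0983 without HNF6KO arrays 3 and 4. The threshold used throughout, a limma p of 0.05 after Benjamini-Hochberg adjustment, was passed by 78 of 19540 genes (0.399%), and the groups did not overlap for 5.67% of genes. The main direction in which arrays of a group differed set numbers 1 and 2 apart from numbers 3 and 4 in both genotypes. What the numbers stand for is not given in the labels, so values for each side are given for the 9 genes. All values are deposited intensities that read as log2, and folds assume that base. The probe sets' levels cannot be set against each other.

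Of the 9 genes, 0 passed the limma test over all genes, where 0.399% of all genes did (0.159% higher and 0.241% lower in HNF6KO). At an unadjusted p of 0.05, 3 of the 9 (Nqo1, Gsta3 and Gsta4) lay higher in HNF6KO and 0 lay lower, where 4.30% and 5.21% of all genes did. The groups overlapped for all 9. Of the 9, 7 had a log2 change above 0, as 42.6% of all genes had, and their median was 0.17, against -0.01 over all genes. Counted by array number, their median was -0.08 for arrays 1 and 2 and 0.26 for arrays 3 and 4.

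**Figure D1:**
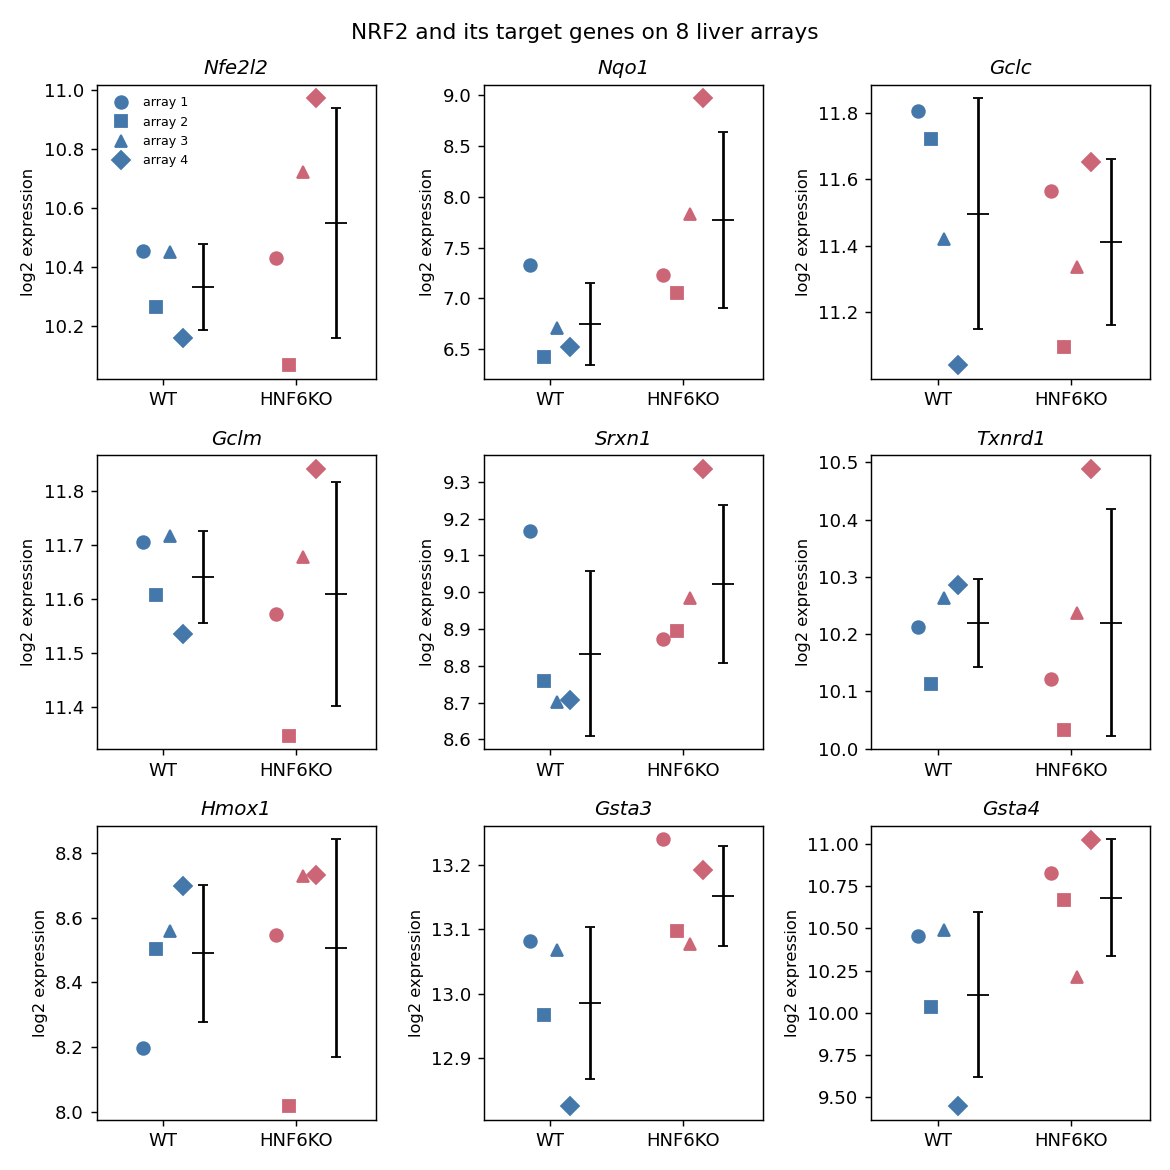
Log2 expression (vertical axes, each with its own range that does not start at 0) of the 9 genes on 4 WT arrays (blue) and 4 HNF6KO arrays (red). Symbols give the array number, and the bar beside each group is its mean ± SD. HNF6KO array 4 (red diamond) is the highest of the 8 arrays for 7 of the 9 genes.

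Promoter sequence is shown for 4 of the 5 genes whose windows held a match, to place them beside the element that NRF2 binds. RefSeq (GRCm38.p6) start sites were at hand for 7 of the 10 genes, not for Gclc, Hmox1 and Gsta4. The 250 bases before each start were searched on both strands for the core element TGACNNNGC and for the looser TGANNNNGC, which contains every core match. The core was found in 4 of 9 windows (3 of the windows belong to Txnrd1) and in 10.2% of all 32851 windows of that length. Those 4 belong to Nfe2l2, Gclm, Gsta3 and Txnrd1, so they are not the 4 printed. The looser form was found in 6 of 9 and in 35.2% of all. Capitals mark the matches, and a match is a string of letters, not a measured binding site. The windows are chr2:75704664-75704913, minus strand for Nfe2l2, chr3:122245307-122245556, plus strand for Gclm, chr2:152105274-152105523, plus strand for Srxn1 and chr1:21240335-21240584, plus strand for Gsta3, each printed in the direction of the gene.
Nfe2l2: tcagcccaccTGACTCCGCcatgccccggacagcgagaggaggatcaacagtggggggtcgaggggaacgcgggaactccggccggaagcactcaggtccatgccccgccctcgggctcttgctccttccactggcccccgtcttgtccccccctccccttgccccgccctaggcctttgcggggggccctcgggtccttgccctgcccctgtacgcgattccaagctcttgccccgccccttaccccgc
Gclm: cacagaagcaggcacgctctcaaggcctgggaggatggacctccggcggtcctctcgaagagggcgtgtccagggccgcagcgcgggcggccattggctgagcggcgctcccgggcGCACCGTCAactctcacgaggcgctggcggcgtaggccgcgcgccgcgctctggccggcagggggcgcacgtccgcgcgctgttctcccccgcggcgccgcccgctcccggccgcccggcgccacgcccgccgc
Srxn1: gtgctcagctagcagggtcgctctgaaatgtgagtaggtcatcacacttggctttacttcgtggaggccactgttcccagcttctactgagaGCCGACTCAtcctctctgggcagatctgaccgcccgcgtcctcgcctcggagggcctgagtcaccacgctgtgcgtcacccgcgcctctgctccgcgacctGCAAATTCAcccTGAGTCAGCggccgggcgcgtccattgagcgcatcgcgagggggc
Gsta3: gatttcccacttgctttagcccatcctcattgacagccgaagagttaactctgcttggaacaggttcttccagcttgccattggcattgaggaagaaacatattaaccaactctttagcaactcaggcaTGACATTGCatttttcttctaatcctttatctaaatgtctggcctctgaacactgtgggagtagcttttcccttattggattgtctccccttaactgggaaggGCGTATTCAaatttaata
Nfe2l2 held 1 core match, TGACTCCGC, which begins 240 bases before the start. Gclm held 1 core match on the opposite strand, read there as TGACGGTGC, and Srxn1 held 3 matches of the looser form alone. Gsta3 held the core match TGACATTGC, which begins 121 bases before its start, and 1 looser match. For Gclm and Gsta3 the annotated span of the gene begins inside the window, at 122245487 and 21240565. The looser Gsta3 match lies past that position. Txnrd1, not printed, held a core match in window 2 (opposite strand, read there as TGACAAAGC), a looser match in window 3 and none in window 1. The windows of Nqo1 and Gsta2 held no match. That says only that these letters are not in the 250 bases searched.

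The Nfe2l2 transcript was higher on 2 of the 4 HNF6KO arrays and not on the other two. Nfe2l2 (Entrez 18024) read 10.45, 10.26, 10.45 and 10.16 on WT arrays 1 to 4. On HNF6KO arrays 1 to 4 it read 10.43, 10.07, 10.72 and 10.97. Arrays 3 and 4 of HNF6KO thus lay above every WT array and array 2 below every one. The log2 change was 0.22 ± 0.17 (SE), with a 95% interval from -0.18 to 0.61 (limma, adjusted p = 0.781). For arrays 1 and 2 alone it was -0.11, for arrays 3 and 4 alone 0.54, and 0.07 when HNF6KO array 4 was left out.

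Genes that control NRF2 showed no passing change. Of 8 measured (Rbx1 was not), 0 rose and 0 fell in limma, and 0 had an unadjusted p under 0.05. Their median log2 change was -0.02. Keap1, the sensor that holds NRF2, read 8.81 ± 0.02 in WT and 8.79 ± 0.06 in HNF6KO (SD, n = 4). The 3 with the smallest p were the competitor Bach1 (log2 change -0.10 ± 0.07), the related factor Nfe2l1 (0.08 ± 0.08) and the KEAP1-binding autophagy receptor Sqstm1 (-0.08 ± 0.10), as change ± SE with adjusted p of 0.714, 0.852 and 0.878. Nfe2l1 and Sqstm1 turned sign between the 2 sides of the array numbers.

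Nqo1 had the widest gap between groups among the 9 genes. It encodes the quinone reductase that is a standard readout of NRF2 activity. Nqo1 (Entrez 18104) read 7.33, 6.43, 6.71 and 6.52 on the WT arrays, in order of number, and 7.23, 7.06, 7.83 and 8.97 on the HNF6KO arrays. HNF6KO arrays 3 and 4 lay above every WT array, while arrays 1 and 2 lay within the WT range, whose top was WT array 1. The log2 change was 1.02 ± 0.39 (SE), or 2.03-fold, with a 95% interval from 0.14 to 1.91 (limma, adjusted p = 0.435, unadjusted p = 0.0283). It was 0.26 within arrays 1 and 2, 1.78 within arrays 3 and 4, and 0.62 without HNF6KO array 4. The SD was 0.41 in WT and 0.86 in HNF6KO.

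Srxn1 and Txnrd1, which serve the thioredoxin and peroxiredoxin system, differed less. Srxn1 (Entrez 76650), the sulfiredoxin that repairs overoxidised peroxiredoxins, read 9.17, 8.76, 8.70 and 8.71 in WT and 8.87, 8.89, 8.98 and 9.34 in HNF6KO. Every HNF6KO array lay above WT arrays 2, 3 and 4, and WT array 1 stood above all HNF6KO arrays but array 4. Its log2 change was 0.19 ± 0.13 (SE), with a 95% interval from -0.11 to 0.49 (limma, adjusted p = 0.738). It was 0.30 without WT array 1 and 0.08 without HNF6KO array 4, and -0.079 for arrays 1 and 2 against 0.46 for arrays 3 and 4. Txnrd1 (Entrez 50493), the cytosolic thioredoxin reductase, read 10.21, 10.11, 10.26 and 10.29 in WT and 10.12, 10.03, 10.24 and 10.49 in HNF6KO. Its group means were 10.22 in each case, and the 95% interval of the difference ran from -0.21 to 0.22 (limma, adjusted p = 0.999). The difference was -0.086 for arrays 1 and 2 and 0.089 for arrays 3 and 4.

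The 2 subunits of glutamate-cysteine ligase, the first and rate-limiting enzyme of glutathione synthesis, gave group means close to each other. Gclc (Entrez 14629), the catalytic subunit, read 11.81, 11.72, 11.42 and 11.04 in WT and 11.57, 11.10, 11.34 and 11.65 in HNF6KO. All 4 HNF6KO values lay inside the WT range. The log2 change was -0.08 ± 0.18 (SE), with a 95% interval from -0.49 to 0.32 (limma, adjusted p = 0.946). Gclm (Entrez 14630), the modifier subunit, read 11.70, 11.61, 11.72 and 11.53 in WT and 11.57, 11.35, 11.68 and 11.84 in HNF6KO. Its change was -0.03 ± 0.10, with a 95% interval from -0.26 to 0.19 (limma, adjusted p = 0.965), so a change of either sign by more than 0.26 lies outside that interval. Both subunits were below 0 within arrays 1 and 2 (-0.43 and -0.20) and above 0 within arrays 3 and 4 (0.26 and 0.13).

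Hmox1, the heme oxygenase that opens heme and is also made by macrophages that take up red cells, did not separate the genotypes. Hmox1 (Entrez 15368) read 8.20, 8.50, 8.56 and 8.70 in WT and 8.54, 8.02, 8.73 and 8.73 in HNF6KO. WT array 1 and HNF6KO array 2 were the lowest of their groups, and the groups overlapped. The log2 change was 0.02 ± 0.17 (SE), with a 95% interval from -0.36 to 0.39 (limma, adjusted p = 0.989). For arrays 1 and 2 it was -0.070 and for arrays 3 and 4 it was 0.10. Its level moved with markers of Kupffer cells, the resident liver macrophages. Over the 8 arrays, as deviations from each group's mean, Hmox1 and the mean of 8 Kupffer markers had a Pearson r of 0.93 and a Spearman rho of 0.90. Without WT array 1 and HNF6KO array 2, r was 0.83. For the other genes described, r with that mean ran from -0.44 (Gsta4) to 0.62 (Txnrd1). The share of all genes with so high an r was not counted, and those markers also followed the array numbers. Which cells the Hmox1 transcript came from was not tested. The summed antilog signal of those markers ran from 1831 to 4763 in WT and from 1931 to 5970 in HNF6KO. In whole liver, fewer cells of a type and less RNA per cell cannot be told apart. Of 7 other measured genes of heme and bilirubin handling, 0 passed (limma, 0 also at an unadjusted p of 0.05), and the median change was -0.05. The smallest p among them belonged to Hmox2, the constitutive heme oxygenase (-0.12 ± 0.09), the heme carrier hemopexin Hpx (0.08 ± 0.11) and its receptor Lrp1 (0.08 ± 0.09), with adjusted p from 0.753 to 0.887.

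The 2 measured alpha glutathione transferases leaned upward on both sides of the array numbers. Gsta3 (Entrez 14859) read 13.08, 12.97, 13.07 and 12.83 in WT and 13.24, 13.10, 13.08 and 13.19 in HNF6KO. HNF6KO arrays 1, 2 and 4 lay above every WT array, and array 3 fell just under WT array 1. The log2 change was 0.17 ± 0.07 (SE), or 1.12-fold, with a 95% interval from 0.01 to 0.32 (limma, adjusted p = 0.495, unadjusted p = 0.0413). Gsta4 (Entrez 14860), an enzyme known for conjugating the lipid peroxidation product hydroxynonenal, read 10.45, 10.04, 10.49 and 9.45 in WT and 10.83, 10.67, 10.21 and 11.03 in HNF6KO. Here too HNF6KO arrays 1, 2 and 4 lay above every WT array and array 3 did not. The log2 change was 0.58 ± 0.25, or 1.49-fold, with a 95% interval from 0.02 to 1.14 (limma, adjusted p = 0.508, unadjusted p = 0.0451). For 8.88% of all genes at least 3 HNF6KO arrays lay above every WT array. Gsta3 changed by 0.14 within arrays 1 and 2 and 0.19 within arrays 3 and 4, and Gsta4 by 0.50 and 0.65. Without WT array 4 the Gsta4 change was 0.35. Probe sets of this family can bind transcripts of relatives such as Gsta1 and Gsta2, so the member measured is uncertain.

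**Figure D2:**
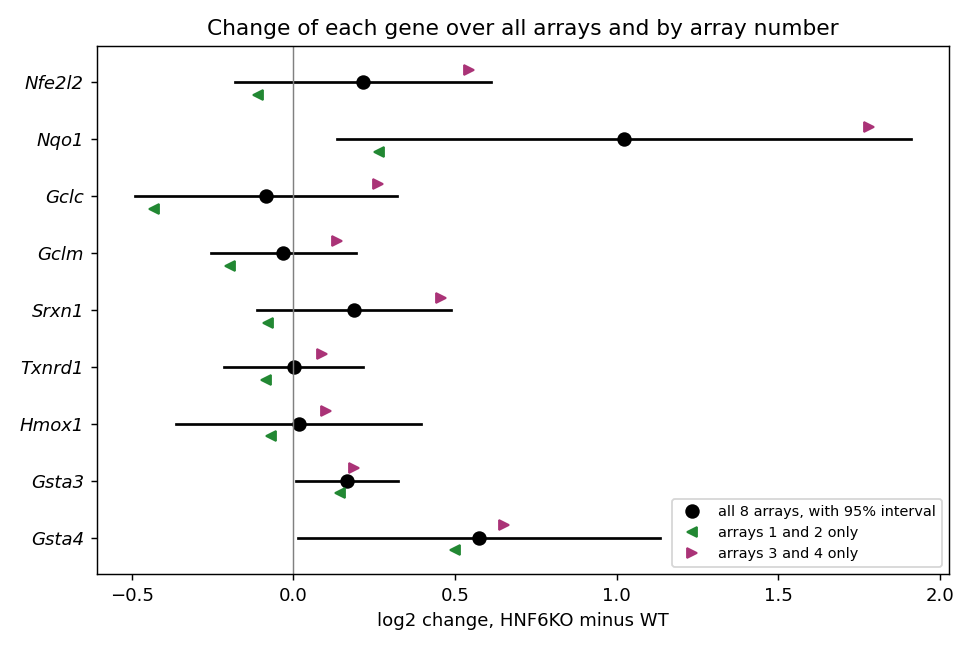
Log2 change of HNF6KO minus WT (horizontal axis) for the 9 genes, as the estimate over 8 arrays with its 95% interval (black), within arrays 1 and 2 (green) and within arrays 3 and 4 (purple). The purple point lies to the right of the green one for every gene, with the widest gap for Nqo1 (0.26 against 1.78).

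For all 9 genes the log2 change was larger within arrays 3 and 4 than within arrays 1 and 2, as for 46.7% of all genes, and the difference was not tested. Within arrays 1 and 2, 3 of the 9 changes were above 0 (Nqo1, Gsta3 and Gsta4), and within arrays 3 and 4 all 9 were. From arrays 1 and 2 to arrays 3 and 4, the mean of Nqo1 moved by 1.26 in HNF6KO and by -0.26 in WT, and that of Nfe2l2 by 0.60 and -0.05. For Gclc the move was 0.16 in HNF6KO and -0.53 in WT, for Gsta3 -0.03 and -0.08, and for Gsta4 -0.13 and -0.28, so that WT moved further than HNF6KO for these 3. HNF6KO array 4 was the highest of the 8 arrays for 7 of the 9 genes, Gclc and Gsta3 being the exceptions, and for 16.6% of all genes. This count was made after the values were seen. Its distance from the WT mean was 2.22 for Nqo1, 0.92 for Gsta4, 0.64 for Nfe2l2 and 0.50 for Srxn1.

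**Figure D3:**
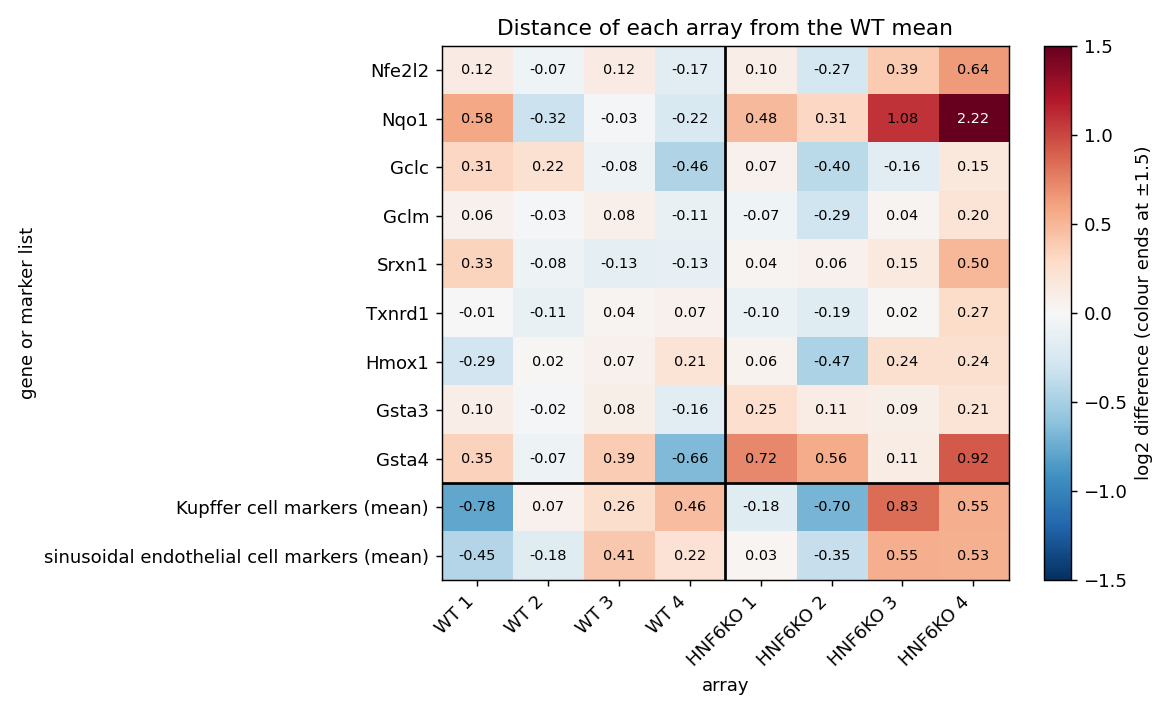
Log2 difference of each array (columns) from the mean of the 4 WT arrays, for the 9 genes and for the means of 8 Kupffer cell and 6 sinusoidal endothelial cell markers (rows), with the value printed in each cell. Colour runs from blue (lower) to red (higher) and ends at ±1.5. HNF6KO array 4 is above 0 in all rows, with 2.22 for Nqo1.

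Markers of Kupffer cells and sinusoidal endothelial cells were also higher on arrays 3 and 4, in both genotypes. The mean of the 8 Kupffer markers was higher on arrays 3 and 4 than on arrays 1 and 2 by 0.72 in WT and 1.13 in HNF6KO, and that of 6 sinusoidal endothelial markers by 0.62 and 0.70. The log2 change between genotypes was 0.07 for Clec4f and 0.24 for Cd5l of the Kupffer list, and 0.07 for Clec4g and 0.11 for Stab2 of the endothelial list. The summed antilog signal of the endothelial markers ran from 2008 to 3553 in WT and from 1991 to 3967 in HNF6KO. Over all arrays, all 8 Kupffer and all 6 endothelial markers had a change above 0 between genotypes, as 42.6% of all genes had. Of these markers 0 passed (limma, and 0 at an unadjusted p of 0.05). The sign was not uniform by side, since numbers 1 and 2 gave a Kupffer median change of -0.05, against 0.34 for numbers 3 and 4. For the endothelial list these medians were 0.09 and 0.23. The gap in mean level between these sides was 0.27 in WT and 0.14 in HNF6KO for stellate cell markers. It was 0.17 and 0.18 for those of monocytes and neutrophils. The cholangiocyte markers differed between the array numbers by 1.43e-04 in WT and -0.016 in HNF6KO, and the red cell precursor markers by 0.12 and -0.48. The hepatocyte markers, among them Alb and Apoa1, differed between the array numbers by 0.04 in each genotype. Between genotypes, 6 of the 7 measured hepatocyte markers had a change above 0, with a median of 0.04, and 0 passed in limma. At an unadjusted p of 0.05, 1 lay higher, as did 4.30% of all genes. The groups did not overlap for 2, both higher in HNF6KO, and for 5.67% of all genes. The part of these cells in the changes of the 9 genes was not tested. Among the measured markers of monocytes and neutrophils (5), stellate cells (6), cholangiocytes (5) and red cell precursors (2), 0 passed in limma and 1 lay lower at an unadjusted p of 0.05. Over all genes, 5.21% lay lower at that p. The marker that did was Alas2, the heme synthesis enzyme of red cell precursors (log2 change -0.98 ± 0.20, adjusted p = 0.0925), named after its values were seen. Slc4a1, the other measured marker of these precursors, differed by -0.03 ± 0.08 over all arrays (adjusted p = 0.958) and by 0.14 within arrays 1 and 2.

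Pairs of the 9 genes were also compared from array to array, as deviations from the group means over the 8 arrays. Nfe2l2 and Gclm had a Pearson r of 0.99 (Spearman rho 0.93), which was 0.98 without HNF6KO arrays 2 and 4. Gsta3 and Gsta4 had r = 0.93 (rho 0.86), and 0.79 without WT array 4 and HNF6KO array 3. Nqo1 and Srxn1 had r = 0.90 (rho 0.76), and 0.56 without HNF6KO array 4 and WT array 1. Nqo1 had r = 0.88 with Nfe2l2, 0.87 with Gclm and 0.86 with Txnrd1, and Nfe2l2 had r = 0.83 with Txnrd1. Of 36 pairs 20 had r above 0.5, and Hmox1 had r of -0.19 and -0.32 with the alpha transferases. These are descriptions of 8 arrays that share a normalization and the separation by number. Genes outside the 9 were ranked in the same measure, leaving out olfactory receptors and clone-like or provisional gene names. Of those ranked, the genes most like Nqo1 were Anp32e, Idnk and Zfp455 (r = 0.97 to 0.98). Those most like Nfe2l2 were Poglut3, Anxa4 and Dhrs1 (r = 0.99 each). With all names kept, 266 genes outside the 9 exceeded r = 0.9 with Nfe2l2 and 94 with Nqo1, of 19540 genes in all. An r above 0.9 was thus not confined to the 9 genes.

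A list of other genes known as NRF2 targets gave no call over all arrays either. Glutathione transferases were not in that list and are described below as a list of their own. Of 20 measured (of 24 listed), 0 rose and 0 fell in limma, and 2 lay higher and 1 lower at an unadjusted p of 0.05. Over all genes, 4.30% lay higher and 5.21% lower at that p. Those were the export pump Abcc4 (log2 change 0.55 ± 0.22), the UDP-glucose dehydrogenase Ugdh (0.25 ± 0.10) and the glutathione peroxidase Gpx2 (-0.18 ± 0.07), with adjusted p of 0.453, 0.487 and 0.475. The list's median was 0.04 over all arrays. It was -0.06 for arrays 1 and 2 (all genes 3.95e-04) and 0.33 for arrays 3 and 4 (all genes -0.03). Abcc4 read 7.73, 7.35, 7.44 and 7.31 in WT and 7.76, 7.82, 7.72 and 8.74 in HNF6KO, so that array 4 stood alone. HNF6KO array 4 was the highest array for 12 of these 20 genes and for 16.6% of all genes. The change was larger within arrays 3 and 4 than within arrays 1 and 2 for 17 of the 20, as for 46.7% of all genes.

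Genes of glutathione handling and of peroxide and superoxide removal did not pass. Of 12 measured genes of glutathione handling, 0 passed and 3 lay higher at an unadjusted p of 0.05 (limma), with a median of 0.03. Over all genes, 4.30% lay higher and 5.21% lower at that p. The cystathionine lyase Cth, which supplies cysteine, lay higher on all 4 HNF6KO arrays (12.43 to 12.88) than on the WT arrays (12.26 to 12.41), a change of 0.31 ± 0.09 (adjusted p = 0.307), or 0.48 for arrays 1 and 2 and 0.14 for arrays 3 and 4. Ggct, which cleaves gamma-glutamyl dipeptides, did so too (0.30 ± 0.10, adjusted p = 0.338), and the glutaredoxin Glrx2 had a change of 0.14 ± 0.05 (adjusted p = 0.473). The groups did not overlap, in either direction, for 5.67% of all genes. Of 12 measured superoxide, peroxide and thioredoxin enzymes, 0 passed, and 1 lay higher and 1 lower at an unadjusted p of 0.05, with a median of 0.05. Among these the peroxiredoxin Prdx2 had a change of 0.12 ± 0.04, the mitochondrial thioredoxin Txn2 one of 0.10 ± 0.06 and the methionine sulfoxide reductase Msrb1 one of -0.13 ± 0.05 (adjusted p of 0.404, 0.658 and 0.431). With the mean of its 2 probe sets, Prdx2 changed by 0.036 (adjusted p = 0.890).

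Outside the alpha class, glutathione transferases held the calls among the related lists. Of 17 measured, 1 rose (Gstm2), 1 fell (Gstp1) and 15 did not pass, with a median of 0.20. Over all genes, 0.159% rose and 0.241% fell. At an unadjusted p of 0.05 in limma, 5 of the 17 lay higher and 2 lower, counting the 2 that passed. Over all genes, 4.30% and 5.21% did. The groups did not overlap for 5 that lay higher and 1 that lay lower, and for 5.67% of all genes in either direction. Gstm2, of the mu class, read 9.50 to 9.75 in WT and 10.13 to 10.75 in HNF6KO, a change of 0.78 ± 0.12 (limma, adjusted p = 0.0412). Gstp1, of the pi class, read 13.60 to 13.71 and 12.96 to 13.38, a change of -0.56 ± 0.09 (adjusted p = 0.0454). Gstt3, of the theta class, changed by 1.15 ± 0.23 (adjusted p = 0.0895) and passed in 4 of 20 alternatives. The calls of Gstm2 and Gstp1 were each lost in most fits that left out 1 array (6 and 7 of 8). Relatives share sequence here too. The alpha transferases' changes of 0.17 and 0.58 thus stood among changes from -0.56 to 1.15 in the other classes.

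**Figure D4:**
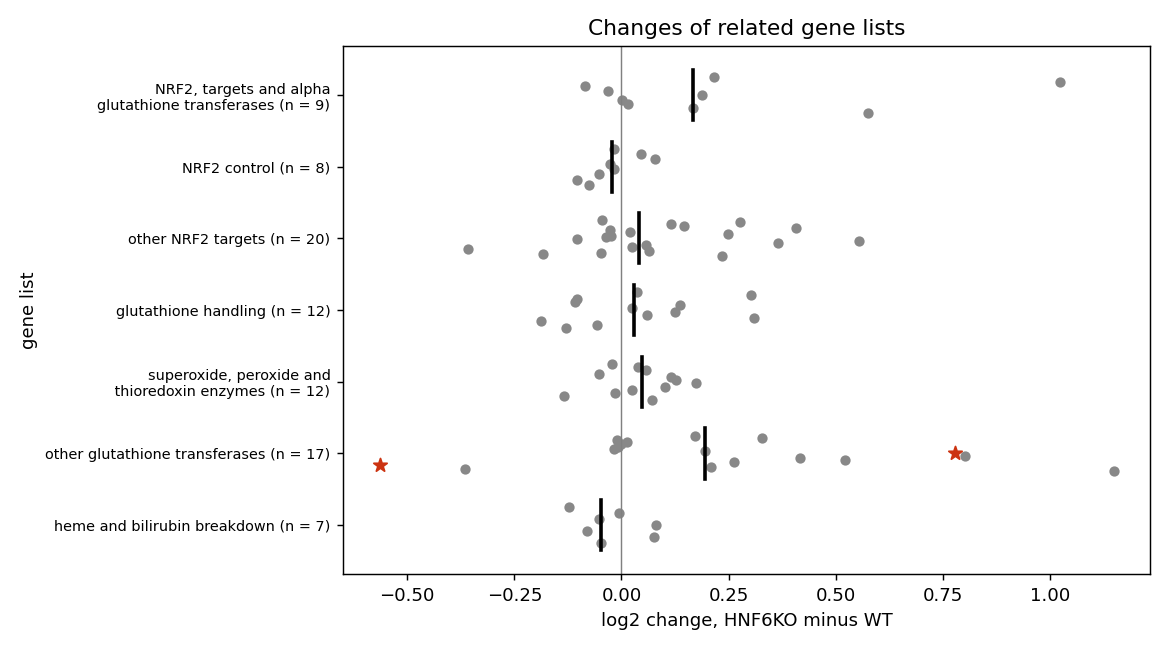
Log2 change of HNF6KO minus WT (horizontal axis) for each measured gene of the 9 genes described and of 6 related lists (rows, with the number measured). Grey points did not pass an adjusted p of 0.05, red stars did, and black bars are medians. The stars are Gstp1 at -0.56 and Gstm2 at 0.78, both among the other glutathione transferases.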

How the data were processed

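Total RNA of mouse liver was labelled with biotin and hybridised to 8 Affymetrix arrays with a whole-transcript kit, as the labels' protocols state. The authors deposited values that read as log2 intensities (3.69 to 14.1, array medians 6.89 to 6.97). The sources used here do not give the base of the logarithm or how the values were background-corrected, normalized and summarised. A true shift of most transcripts may therefore not be visible. Nothing was rescaled. Of 22725 probe sets, 21113 had 1 gene symbol in the platform annotation, 43 several and 1569 none here. The brightest by mean over the 8 arrays stood for each of 19540 genes.

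The groups were compared with limma 3.58.1 (lmFit, eBayes) under R 4.3.3, Benjamini-Hochberg adjusted over all genes, threshold 0.05, and intervals are 95% moderated ones. The step was tested on simulated data. The number of arrays, 4 per group, limits the precision. The members and lists were chosen with earlier results of these data known, so lists are described by counts and medians without a set test. The genes named are the members, Onecut1, 3 genes of each of 6 process lists with the smallest p and the 2 brightest of marker lists. The genes most like Nqo1 (the smallest p) and Nfe2l2 are also named, without olfactory receptors and clone-like or provisional names. Keap1 and Alas2 were named after their values were seen. The 20 alternatives cover normalization, filter, variance model, array weights, probe set rule, array number and each array left out. Array numbers are shared by the genotypes, but deviations of same-numbered arrays correlated at 0.44, 0.17, 0.51 and 0.02, so the numbers were not taken as pairs. Promoters are from RefSeq on GRCm38.p6, and the build behind the array annotation is not given.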

Additional observations from a re-analysis of the deposited data

Results flagged for a closer look

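Srxn1 on WT array 1 stood away from the other arrays of its group, at 9.17 against 8.70 to 8.76 on WT arrays 2 to 4, a gap larger than 4 arrays of one spread would usually show. Of 20 groups of 4 arrays checked in this way (the 9 genes and Onecut1 in each genotype), 1 was picked out, and chance alone picks out about 1 in 20. Nqo1 was also highest in WT on array 1 (7.33), and the Kupffer marker mean was lowest there.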

How the results depend on the processing

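In each of the 20 alternatives 0 of the 9 genes passed an adjusted p of 0.05, with the lowest value at 0.119 (Nqo1 with array weights), and 0 passed at 0.1. At an unadjusted p of 0.05, 3 did. Nqo1, Gsta3 and Gsta4 kept their sign in all 20. Of 180 gene values, 20 turned sign, for the other 6 genes, all without passing, and the cause was not tested. Within arrays 1 and 2 alone, Nfe2l2 was -0.11, Srxn1 -0.079, Txnrd1 -0.086, Hmox1 -0.070 and Nfe2l1 -0.0049. Within arrays 3 and 4 alone, Gclc was 0.26, Gclm 0.13, Sqstm1 0.036, Hpx -7.46e-04 and Lrp1 -0.018. Without HNF6KO arrays 3 and 4, Nfe2l2 was -0.084, Txnrd1 -0.14, Hmox1 -0.21 and Nfe2l1 -0.058, and with array weights Gclm was 0.025. With 1 array left out, Gclc ran from -0.24 to 0.021, Gclm from -0.11 to 0.056, Txnrd1 from -0.088 to 0.064, Hmox1 from -0.081 to 0.18 and Hpx from -0.0039 to 0.15. The count of all genes called, 78, was 202 with array weights, 245 with the split of array numbers as a term, 22 within arrays 1 and 2 and 19 without HNF6KO arrays 3 and 4, and 16 to 79 with 1 array left out. With the array number as a replicate block it was 125, and 0 of the 9 genes passed. The number called among the related lists, 2, was 1 with quantile normalization, median centring, every probe set on its own or without HNF6KO arrays 3 and 4, and 0 within either side of the numbers. It was 3 with array weights and 3 with the split of array numbers as a term, where Gstt3 passed as well. With 1 array left out it was 0 to 2, but Gstm2 and Gstp1 did not pass together in any of those fits. The block ended the call of Gstp1 (adjusted p = 0.0627) and added Gstt3 (0.0120).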
